A study of Bos taurus with 17 samples.

Results

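The genes described here are 6 genes of retinoid response and binding in bovine umbilical cord mesenchymal stem cells: RARRES1, CRABP1, AOX1, RARA, RARG and RXRA. They were taken by symbol from the 12894 genes of the deposited table, with their levels in these libraries already in view, so their own levels and changes are given as descriptions, with no p-value. Where a member is said to be past the call threshold, that restates the values it was chosen on and is no test of it. All 6 were listed and all 6 passed the minimum mean of 5 normalized reads that 10960 genes met. CRABP1 passed it through 1 group alone: without the day 21 libraries on plastic, its mean over the remaining 13 libraries was 4.23 normalized reads.

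The cells, primary stromal cells that can enter several connective tissue lineages, came from a study of scaffolds and myogenic differentiation. The smart scaffold group (3 libraries) was grown for 21 days on a scaffold that carried the growth factors itself, in medium without them. The media scaffold group (4 libraries) spent 21 days on a scaffold without attached factors, in the full myogenic medium. Plastic plates were sampled at day 0 (3 libraries), when cells had been seeded the day before and had not yet met the myogenic medium, and again with 3 days (3 libraries) or 21 days of it (2 libraries). The labels describe that medium as DMEM/F-12 with low serum, ITS, albumin, VEGF, IGF, FGF, ascorbate-2-phosphate and dexamethasone, and they list no retinoid among its additives. Retinoids in the serum or in the cultures were not measured in these data. Replicates are called biological in the series' design, but the number of animals behind the cells is not given, and p-values measure only the spread between the libraries. Untreated scaffold cells of day 0 were not analysed here, so scaffold cells are set against plastic alone. MARS-seq, the assay used, counts the 3′ ends of polyadenylated transcripts, and normalized reads are read counts divided by 1 scaling factor per library.

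Retinoids are derivatives of vitamin A. Retinol is taken up, oxidized to retinaldehyde and then to retinoic acid, which intracellular binding proteins carry either to breakdown enzymes or to the nucleus. There it binds retinoic acid receptors (RARs), which sit on DNA in pairs with retinoid X receptors (RXRs) and switch target genes on or off together with coactivators and corepressors. In mesenchymal cells this pathway is known for its influence on the choice between cartilage, bone, fat and muscle fates.

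Recovered reads per library ran from 4315324 to 8258530 on the smart scaffold and from 7397661 to 8975051 on the media scaffold. On plastic, day 0 libraries held 8952711 to 15483745, day 3 libraries 3118284 to 8629658 and day 21 libraries 2197356 to 5264578 reads, so the day 21 plastic group was both the smallest and the shallowest. All 6 mesenchymal markers looked for (NT5E, THY1, ENG, CD44, VIM and PDGFRB) were listed and tested, with summed levels of 76072 to 134929 normalized reads per library, most of them VIM. Single markers moved: THY1 averaged 18122 ± 2324 normalized reads at day 21 on plastic and 401 ± 30.1 at day 0. On the scaffolds THY1 averaged 10141 ± 810 (smart) and 15475 ± 931 (media). CD44 averaged 335 ± 1.96 at day 21 on plastic and 1429 ± 66.5 at day 0, with 824 ± 120 on the smart and 740 ± 49.8 on the media scaffold. ENG averaged 576 ± 54.7 on the smart and 614 ± 13.7 on the media scaffold, against 3407 ± 668 on day 21 plastic and 663 ± 67.1 at day 0. Of 3 listed adipocyte markers (PLIN1, CIDEC and LPL), all 3 rose on each scaffold against day 21 plastic. Their summed level was 528 to 738 on the smart scaffold and 949 to 1605 on the media scaffold, against 34.4 to 81.4 normalized reads on day 21 plastic and 20.4 to 29.3 at day 0. The hepatocyte list, of which APOA1 and TTR were listed (TTR is also one of the retinoid carriers below), summed to 223 to 289 on the smart scaffold and 289 to 359 on the media scaffold, against 4858 to 5079 on day 21 plastic and 34.7 to 43.6 at day 0. Its 2 genes went opposite ways against day 21 plastic: APOA1, which carries the sum, fell by 4.45 ± 0.25 on the smart scaffold and fell by 4.20 ± 0.24 on the media scaffold on the log2 scale (limma adjusted p = 2.38e-10 and 2.99e-10), while TTR rose by 2.71 ± 0.53 and 3.53 ± 0.51 (limma adjusted p = 0.000282 and 1.16e-05). The 4 listed blood and immune markers were CD14, CD34, CSF1R and LAPTM5, among 6 looked for. They summed to 19.5 to 26.9 on the smart scaffold and 18.9 to 25.1 on the media scaffold. On day 21 plastic the sum was 115 to 165 normalized reads, and at day 0 it was 11.1 to 14.4. VWF, the 1 listed endothelial marker, averaged 5.84 ± 1.17 normalized reads at day 0 and 22.8 ± 5.56 at day 3. It averaged 29.9 ± 11.1 on day 21 plastic, 26.4 ± 4.38 on the smart and 27.5 ± 5.30 on the media scaffold. CDH1, the 1 listed epithelial marker, lay between 0 and 5.97 in every library. The part of these markers in the members' levels was not tested. In these bulk samples, fewer cells of a type and less RNA per cell cannot be told apart.

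RARRES1, a membrane protein first described in skin as induced by a synthetic retinoid, was far higher on the scaffolds than on plastic. RARRES1 (ENSBTAG00000014713) had 18149, 17714 and 19893.5 normalized reads in the smart scaffold libraries. In the media scaffold libraries it had 16718, 15771, 16214 and 20856 normalized reads. On plastic it had 111, 102 and 108 normalized reads at day 0, 389, 327 and 416 at day 3, and 1090.3 and 1113 at day 21. The scaffold groups overlapped each other and lay above every plastic library, and the 3 plastic times stood in order of time with no overlap. Means were 18585.5 ± 1153 normalized reads on the smart scaffold (SD, n = 3) and 17389.8 ± 2343 on the media scaffold (n = 4), against 1102 ± 16.3 on day 21 plastic (n = 2). These are 16.9-fold and 15.8-fold differences from day 21 plastic, with fitted log2 changes of 4.07 ± 0.13 (SE) and 3.97 ± 0.12. It was lowest before the myogenic medium was added. Against day 0 the ratio of means was 173 on the smart scaffold and 162 on the media scaffold. On plastic the mean was 377 ± 45.6 at day 3 (n = 3), 3.52-fold above the 107 ± 4.43 of day 0 (n = 3), and 10.3-fold above day 0 at day 21. RARRES1 was thus higher at each later time on plastic and higher again on either scaffold. Between the scaffolds the fitted log2 change, smart minus media, was 0.10 ± 0.10, with overlapping libraries. By size of log2 change, RARRES1 ranked 18 from the top of 10960 tested genes on the smart scaffold against day 0 and 27 on the media scaffold, but 100 and 109 against day 21 plastic.

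**Figure D1:**
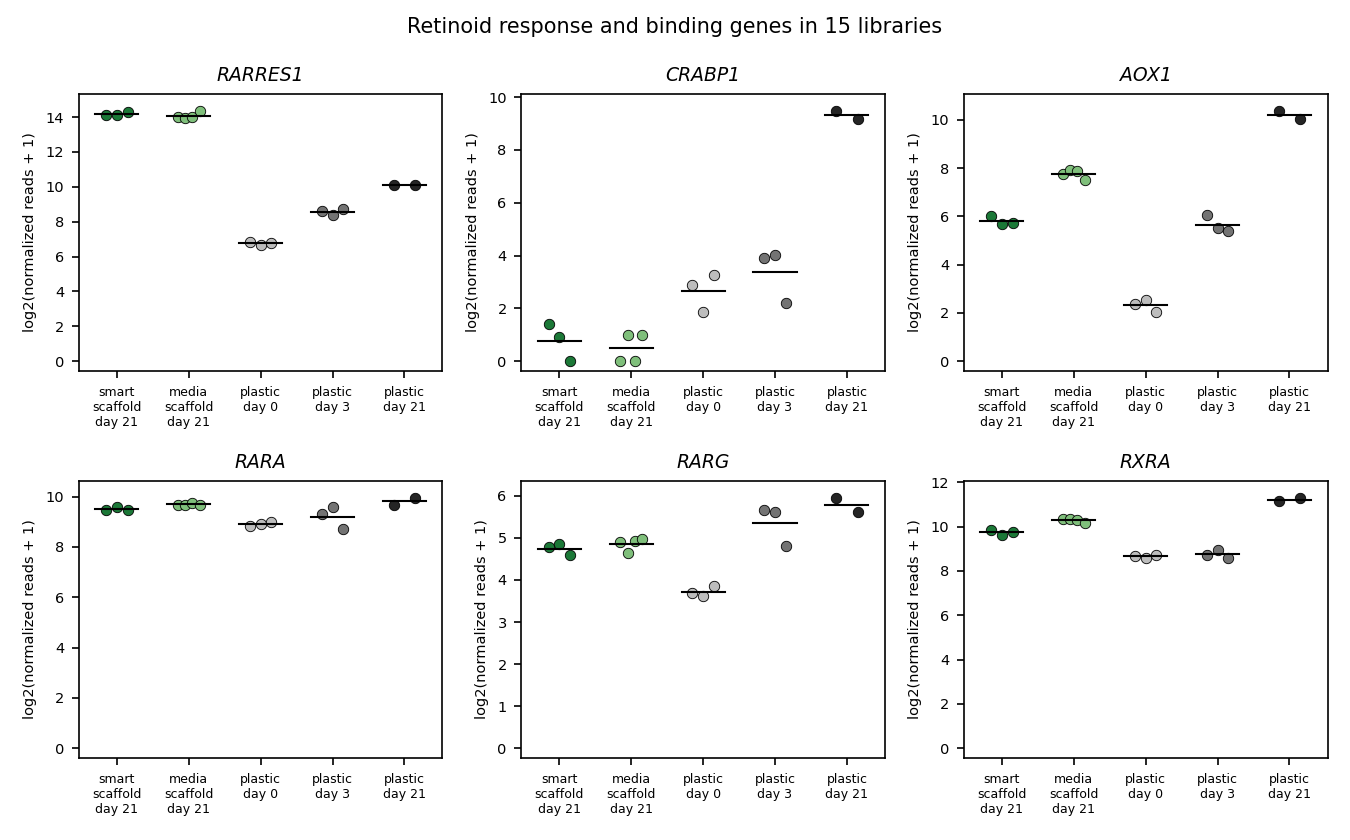
Level of each of the 6 genes, as log2(normalized reads + 1), in 15 libraries; points are libraries, bars are group means on the log2 scale, and the groups are smart scaffold day 21 (n = 3), media scaffold day 21 (n = 4) and plastic at day 0 (n = 3), day 3 (n = 3) and day 21 (n = 2). RARRES1 is highest in the 7 scaffold libraries, while CRABP1, AOX1 and RXRA are highest in both day 21 plastic libraries.

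CRABP1, a cytosolic protein that binds retinoic acid and is known for passing it to breakdown, showed the opposite arrangement: it was abundant on day 21 plastic and nearly absent from the scaffolds. CRABP1 (ENSBTAG00000012909) had 1.65, 0.868 and 0 normalized reads in the smart scaffold libraries and 0, 0.995, 0 and 0.987 in the media scaffold libraries. These values stand for 2 recovered reads in each scaffold group. On plastic it had 6.33, 2.67 and 8.68 normalized reads at day 0, 14.1, 15.1 and 3.57 at day 3, and 711 and 581 at day 21. Both day 21 plastic libraries, with 684 recovered reads between them, lay far above the other 13 libraries, and every scaffold library lay below every plastic library. Day 0 and day 3 overlapped. By summed reads scaled for depth, CRABP1 was 885-fold lower on the smart scaffold than on day 21 plastic, with a 95% exact counting interval of 244 to 7323, and 1506-fold lower on the media scaffold, with an interval of 415 to 12458. Against day 0 it was 8.11-fold lower on the smart scaffold (interval 2.09 to 69.6) and 13.8-fold lower on the media scaffold (3.55 to 118). On plastic the ratio of day 21 to day 0 was 109, with an interval of 78.0 to 157. These intervals cover counting error only, and reads are not known to be independent molecules. No fold is given between the scaffolds, since both groups held no more than 3 reads, the limit that a count of 0 allows.

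AOX1, a cytosolic molybdenum enzyme that oxidizes aldehydes, retinaldehyde among them, was the member with the largest difference between the scaffolds. AOX1 (ENSBTAG00000009725) had 62.7, 50.3 and 51.7 normalized reads in the smart scaffold libraries, against 215, 238, 236.5 and 181.6 in the media scaffold libraries. It had 4.22, 4.799 and 3.16 normalized reads on plastic at day 0, 65.3, 44.3 and 41.1 at day 3, and 1315 and 1031 at day 21. The order from high to low was day 21 plastic, media scaffold, smart scaffold, day 3 and day 0, and of these neighbours the smart scaffold and day 3 alone overlapped. Means were 54.9 ± 6.80 normalized reads on the smart scaffold (SD, n = 3) and 218 ± 26.2 on the media scaffold (n = 4), a 3.96-fold lower level with a log2 change of -1.97 ± 0.19. Only 99 of 10960 genes, or 0.903%, were called between the scaffolds, and AOX1 ranked 32 from the bottom there. The media scaffold level thus lay between the smart scaffold and day 21 plastic. Against the 1173 ± 201.1 normalized reads of day 21 plastic (n = 2), AOX1 was 21.4-fold lower on the smart scaffold and 5.39-fold lower on the media scaffold. Relative to day 0, at 4.06 ± 0.832 (n = 3), it was 12.4-fold higher at day 3 and 289-fold higher at day 21 on plastic. That last change, 7.86 ± 0.22 on the log2 scale, ranked 14 from the top of all tested genes. In the RefSeq annotation (assembly ARS-UCD2.0) a further aldehyde oxidase gene, AOX4, lies beside AOX1. No listed gene carried the symbol AOX4, so how reads from any sequence it shares with AOX1 were counted is not known.

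The 3 receptors differed from each other. RXRA (ENSBTAG00000017851), one of the partners with which RARs bind DNA, had 924, 784 and 859.8 normalized reads in the smart scaffold libraries and 1287, 1283, 1247 and 1157 in the media scaffold libraries. On plastic RXRA had 413, 379 and 423 normalized reads at day 0, 421, 495 and 380.2 at day 3, and 2277 and 2505 at day 21. No library overlapped between day 21 plastic, the media scaffold, the smart scaffold and the earlier plastic libraries, in that order from high to low, while day 0 and day 3 overlapped. The log2 change of RXRA against day 21 plastic was -1.48 ± 0.12 on the smart scaffold and -0.94 ± 0.11 on the media scaffold. Between the scaffolds, smart minus media, it was -0.54 ± 0.10, and on plastic it was 2.56 ± 0.12 at day 21 and 0.09 ± 0.11 at day 3 against day 0. AOX1 and RXRA thus shared the order day 21 plastic, media scaffold, smart scaffold, with no overlap among these 3 groups.

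RARG (ENSBTAG00000007592), a receptor prominent in skin and developing cartilage, was lowest at day 0. RARG had 26.4, 27.8 and 23.0 normalized reads in the smart scaffold libraries, 28.7, 23.9, 29.2 and 30.6 in the media scaffold libraries, 12.0, 11.2 and 13.4 on plastic at day 0, 49.8, 48.3 and 26.8 at day 3, and 60.7 and 48.1 at day 21. All 12 later libraries lay above the 3 of day 0, but neighbouring groups among them overlapped. Its log2 change on plastic was 1.64 ± 0.24 at day 3 and 2.06 ± 0.27 at day 21, each against day 0. Against day 21 plastic it was -1.05 ± 0.27 on the smart scaffold and -0.93 ± 0.26 on the media scaffold, on either side of the log2 threshold of 1. Single libraries could therefore decide these calls: without replicate 1 of day 21 plastic the smart scaffold value was -0.88, without replicate 3 of the smart scaffold it was -0.97, and without replicate 2 of day 21 plastic the media scaffold value was -1.09. The processing could as well. With a pseudocount of 4 the smart scaffold value was -0.97, and with quantile normalization the media scaffold value was -1.16. Relative to day 0, the changes on the smart and media scaffolds were 1.02 ± 0.24 and 1.14 ± 0.23, and both came out under the threshold, at 0.80 and 0.90, when every library was rescaled to the same total. Both were under the threshold as well with a pseudocount of 4 (0.88 and 0.98) and with quantile normalization (0.91 and 0.99). The smart scaffold value was also under it without replicate 2 of day 0 (0.96) or replicate 1 or 2 of the smart scaffold (0.997 and 0.96).

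RARA (ENSBTAG00000012500), the most broadly expressed RAR, had the narrowest range of changes. It had 698, 757 and 702 normalized reads in the smart scaffold libraries and 811, 804, 867 and 808 in the media scaffold libraries. On plastic it had 449, 483 and 504 normalized reads at day 0, 633, 764 and 416 at day 3, and 819.8 and 983 at day 21. Smart scaffold libraries lay below all media scaffold libraries. The media scaffold and day 21 plastic overlapped, as did day 3 with both day 0 and the smart scaffold. Its log2 changes lay between -0.32 ± 0.17, on the smart scaffold against day 21 plastic, and 0.91 ± 0.17, at day 21 against day 0 on plastic, and none of the 8 changes was past the log2 threshold of 1. The day 21 value on plastic reached 1.04 without replicate 1 of day 21 plastic. Replicate 3 of day 3, the shallowest library of its group, was its lowest for RARA, RARG, RXRA, CRABP1 and AOX1 and its highest for RARRES1.

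A gene was called at a limma adjusted p under 0.05 with a log2 change of at least 1 in either direction. The comparisons share groups of libraries, so their counts are not independent, and the members were picked with these changes known. CRABP1 met the minimum mean through day 21 plastic alone, so its place in the counts against that group was set by the filter. At day 3 against day 0 on plastic, 3 of 6 members were called, all higher (RARRES1, AOX1 and RARG). Over all tested genes 10.0% were called there, 6.27% higher and 3.73% lower. By day 21 against day 0, 5 of 6 were called, all higher and all but RARA. The background there was 45.2% of all tested genes, 21.2% higher and 24.1% lower. CRABP1 and RXRA joined after day 3, the other called members having been called already. At day 21 against day 3, 4 of 6 were called, all higher (RARRES1, CRABP1, AOX1 and RXRA), against 34.9% of all tested genes, 15.5% higher and 19.4% lower. On the smart scaffold against day 21 plastic, RARRES1 was called higher and CRABP1, AOX1, RARG and RXRA lower. The background was 37.5% of all tested genes, 21.4% higher and 16.0% lower. On the media scaffold against day 21 plastic, RARRES1 was called higher and CRABP1 and AOX1 lower, against 35.4% (20.8% higher and 14.6% lower). CRABP1 is in each of these counts with the limit just given. Against day 0, each scaffold had 4 members called higher and CRABP1 lower, with backgrounds of 30.6% on the smart (16.5% higher and 14.1% lower) and 32.4% on the media scaffold (17.5% higher and 14.9% lower). By non-overlap of the libraries instead, 6 of 6 members separated on the smart and 5 of 6 on the media scaffold from day 21 plastic, where 73.1% and 71.2% of all tested genes did. From day 0, all 6 separated on the smart scaffold, the media scaffold and day 21 plastic, where 72.9%, 72.4% and 79.7% of all tested genes did. On plastic 5 of 6 separated between day 21 and day 3 and 3 of 6 between day 3 and day 0, beside 65.4% and 44.3%, and 3 of 6 separated between the scaffolds, beside 20.4%. Nothing is read from these counts beyond the levels above, since the members were chosen on them. The median log2 change of the 6 members was -1.26 on the smart and -0.93 on the media scaffold against day 21 plastic. Each is a description only, since the members were chosen on these changes and CRABP1 met the minimum mean through day 21 plastic. RARRES1 and CRABP1 stood on opposite sides of these medians.

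**Figure D2:**
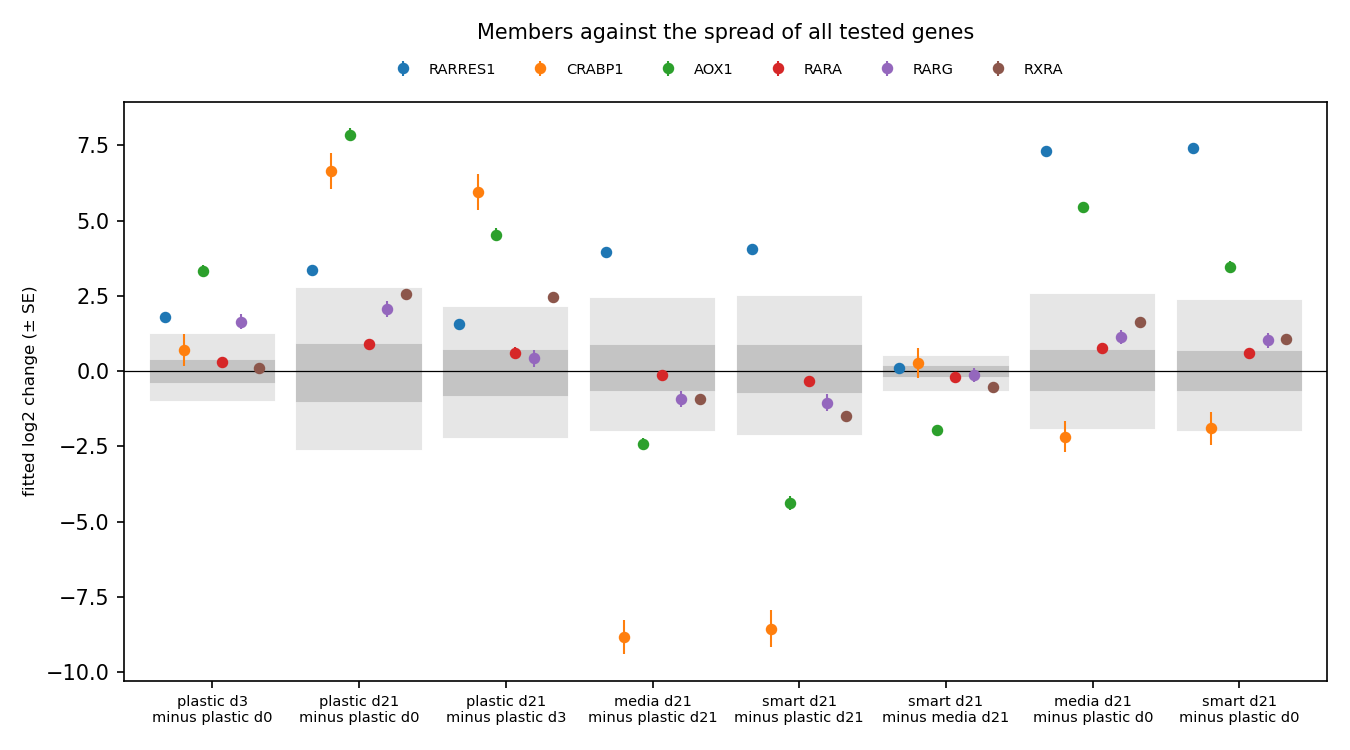
Fitted log2 change of each member (points, ± SE) in 8 comparisons, each labelled as the first group minus the other; dark grey boxes hold the middle 50% and light grey boxes the middle 90% of all 10960 tested genes. RARRES1 lies near 4 and CRABP1 under -8 on both scaffolds against day 21 plastic, and AOX1, at -1.97, is the member farthest from 0 between the scaffolds.

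Genes with the closest pattern to each member were found by Pearson correlation of log2 values over the 15 libraries, which share the same 5 groups, so r describes mainly the order of the group levels. RARRES1 was followed most closely by DHRS7 (r = 0.996), PDGFRL (0.994) and HPCAL1 (0.990). DHRS7 averaged 269.8 ± 9.94 normalized reads on the smart scaffold (SD, n = 3) and 250.3 ± 4.41 on the media scaffold (n = 4), against 55.6 ± 4.67 at day 0 (n = 3), 77.2 ± 8.64 at day 3 (n = 3) and 103 ± 0.296 at day 21 on plastic (n = 2). The nearest genes to CRABP1 were PLEKHA6 (0.977), PARP6 (0.968) and ASB11 (0.966). For AOX1 they were L3MBTL3 (0.993), PLEKHH3 (0.988) and CLMP (0.982). RXRA went with BGN (0.994), the matrix proteoglycan biglycan, CHI3L1 (0.988) and TNFRSF1A (0.986). BGN averaged 19735 ± 1705 normalized reads on the smart scaffold and 31544 ± 1482 on the media scaffold, against 67474 ± 709 on day 21 plastic, the same group order as RXRA. RARA was nearest to LGI4 (0.968), SNX17 (0.968) and ZNF358 (0.967), and RARG to SH3GLB2 (0.951), C10H15orf62 (0.949) and FAM89B (0.945). Among the members themselves, r ran from -0.467 between RARRES1 and CRABP1 to 0.898 between AOX1 and RXRA.

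The rest of the retinoid pathway was read from a list of 48 further genes, of which 33 were listed in the table and 28 tested. The list was drawn up by role, with earlier results of these data known. On the smart scaffold against day 21 plastic, 5 rose, 12 fell and 11 were not called, with a median log2 change of -0.65 beside 0.01 over all tested genes. Over all tested genes 21.4% were called higher and 16.0% lower there. On the media scaffold, 4 rose, 10 fell and 14 were not called, with a median of -0.48 beside 0.02, where 20.8% of all tested genes were called higher and 14.6% lower. On plastic at day 21 against day 0, 12 rose, 1 fell and 15 were not called, with a median of 0.74 beside -0.06, where 21.2% of all tested genes were called higher and 24.1% lower. Against day 0, 6 rose and 3 fell on the smart scaffold, with a median of -0.06 beside -0.003 over all tested genes. The media scaffold had 7 higher and 4 lower than day 0, with a median of 0.11 beside -0.0004. Of all tested genes, 16.5% were called higher and 14.1% lower on the smart scaffold against day 0. The shares on the media scaffold were 17.5% and 14.9%.

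**Figure D3:**
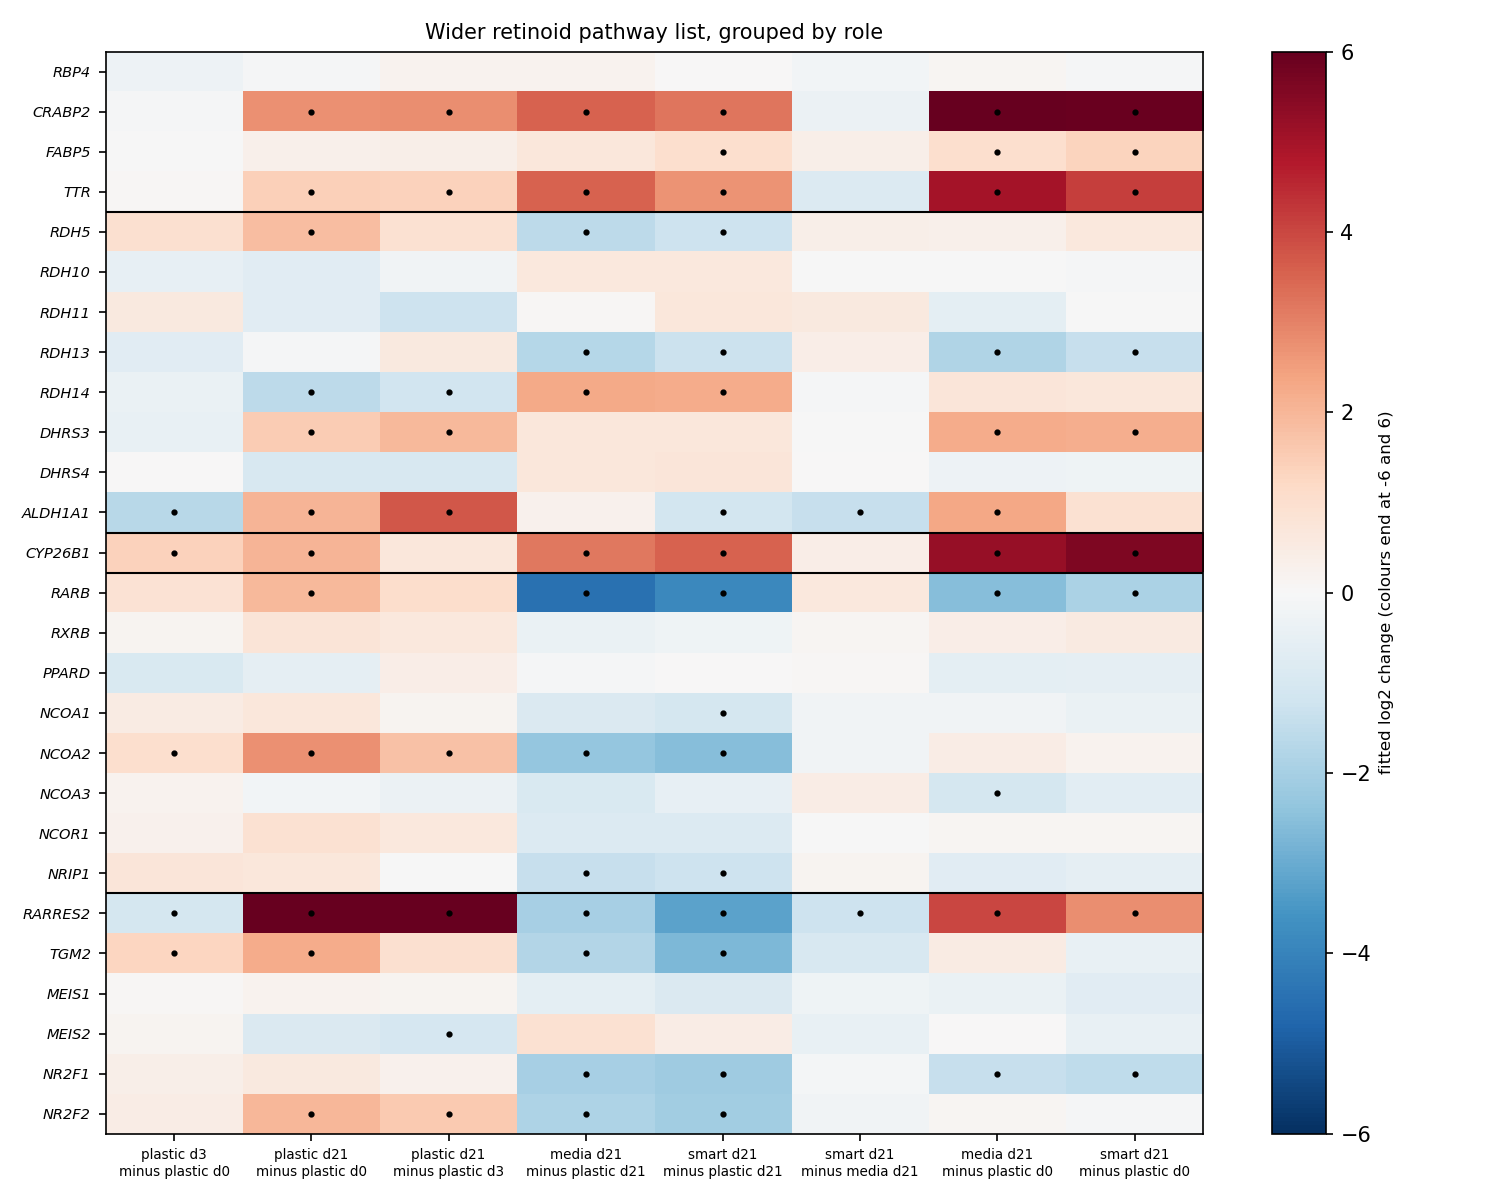
Fitted log2 change of 27 of the 28 tested genes of the wider retinoid pathway list (rows, in blocks for uptake and carriers, synthesis and storage, breakdown, receptors and partners, and response genes) in 8 comparisons (columns); red is higher and blue lower in the group named first, and a dot marks a called gene. CRABP2, TTR and CYP26B1 are red on the scaffolds, while RARB, NCOA2, RARRES2 and TGM2 are blue there against day 21 plastic.

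By role, the counts against day 21 plastic were as follows. Of 4 tested carriers, 3 rose on the smart and 2 on the media scaffold against day 21 plastic, and none fell. CRABP2, the relative of CRABP1 that delivers retinoic acid to RARs in the nucleus, had 406, 502 and 461 normalized reads in the smart scaffold libraries, 537, 549, 559 and 727.5 in the media scaffold libraries, and 63.5 and 37.8 on day 21 plastic. Its groups did not overlap, and CRABP2 rose by 3.19 ± 0.32 on the smart scaffold (limma adjusted p = 1.72e-07) and by 3.56 ± 0.30 on the media scaffold (limma adjusted p = 2.79e-08) on the log2 scale, where CRABP1 was at 2 reads per group. CYP26B1, an enzyme that breaks down retinoic acid and is the 1 tested gene of that role, averaged 189 ± 27.4 normalized reads on the smart scaffold and 144 ± 5.70 on the media scaffold, against 19.3 ± 17.6 on day 21 plastic and 2.93 ± 0.239 at day 0. It rose on both scaffolds against day 21 plastic, by 3.55 ± 0.38 and 3.18 ± 0.36 on the log2 scale (limma adjusted p = 4.37e-07 and 8.96e-07 for smart and media).

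Of 9 tested receptors and partners, 5 fell on the smart and 4 on the media scaffold against day 21 plastic, and none rose. RARB, a receptor gene that is itself a classical RAR target, averaged 5.76 ± 1.04 normalized reads on the smart scaffold and 4.65 ± 5.03 on the media scaffold, against 24.4 ± 1.27 at day 0, 47.1 ± 13.2 at day 3 and 96.1 ± 5.08 at day 21 on plastic. It fell on the smart scaffold by 3.86 ± 0.54 and on the media scaffold by 4.49 ± 0.51 on the log2 scale against day 21 plastic (limma adjusted p = 9.43e-06 and 9.53e-07), and was also lower on both than at day 0. The coactivator gene NCOA2 fell by 2.53 ± 0.37 on the smart and 2.31 ± 0.35 on the media scaffold (limma adjusted p = 1.36e-05 and 2.14e-05). RXRB, the relative of RXRA, was called in none of the 8 comparisons, with log2 changes of -0.25 ± 0.14 on the smart and -0.38 ± 0.13 on the media scaffold against day 21 plastic.

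Each gene of the list was counted under a single role. Of 6 tested genes counted as response genes, 4 fell and none rose on each scaffold against day 21 plastic: RARRES2, TGM2, NR2F1 and NR2F2. CRABP2 and CYP26B1, counted under other roles, rose there, while RARB, also counted under another role, fell. Whether any of these genes responded to a retinoid was not tested. RARRES1, a response gene by name, was 16.9-fold and 15.8-fold higher there. RARRES2, which encodes the secreted attractant chemerin and shares the retinoid responder name without being a relative, had 64.4, 63.3 and 40.2 normalized reads in the smart scaffold libraries, 143, 132, 149.8 and 104 in the media scaffold libraries, and 542 and 495 on day 21 plastic. It fell by 3.22 ± 0.31 on the smart scaffold and by 1.98 ± 0.29 on the media scaffold on the log2 scale (limma adjusted p = 1.22e-07 and 1.67e-05). Between the scaffolds RARRES2 fell by 1.24 ± 0.26, smart minus media (limma adjusted p = 0.0153), with no overlap. That call was lost without replicate 1, 2 or 3 of the media scaffold or replicate 3 of the smart scaffold. TGM2, a transglutaminase long known as a retinoic acid target, fell by 2.71 ± 0.22 and 1.74 ± 0.21 (limma adjusted p = 1.79e-08 and 1.64e-06 for smart and media against day 21 plastic). The orphan receptor NR2F1 fell by 2.11 ± 0.11 and 2.00 ± 0.10 (limma adjusted p = 8e-11 and 1.01e-10), and NR2F2 by 2.07 ± 0.16 and 1.87 ± 0.15 (limma adjusted p = 1.1e-08 and 2.03e-08). Against day 0, 1 of the 6 response genes was called higher and 1 lower on each scaffold. RARRES2 averaged 56.0 on the smart and 132 on the media scaffold, against 7.44 normalized reads at day 0. In the same order, TGM2 averaged 219 and 433 against 298. NR2F1 averaged 481 and 520 against 1362, and NR2F2 953 and 1090 against 1010.

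**Figure D4:**
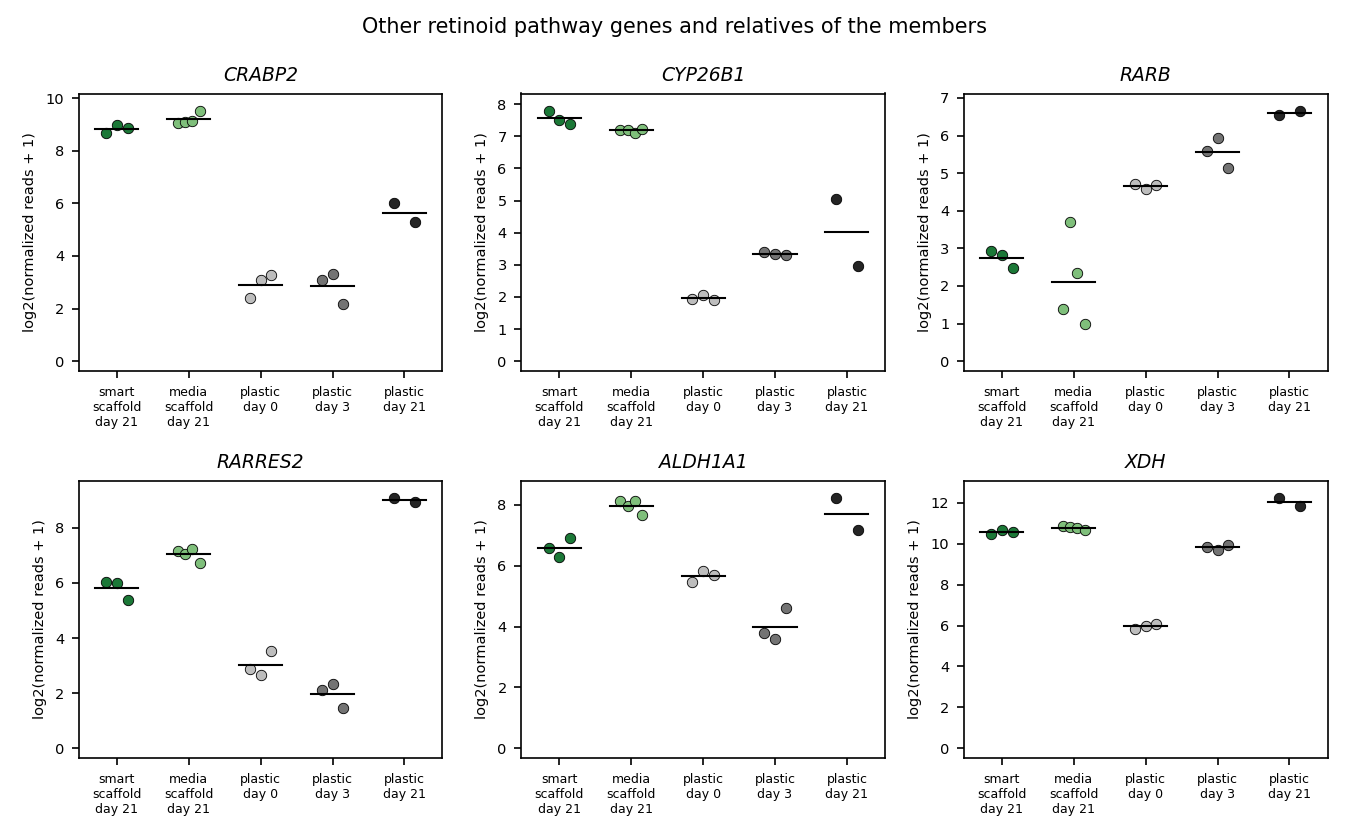
Level, as log2(normalized reads + 1), of CRABP2, CYP26B1, RARB, RARRES2, ALDH1A1 and XDH in 15 libraries; points are libraries and bars are group means on the log2 scale, for the smart scaffold (n = 3) and media scaffold (n = 4) at day 21 and plastic at day 0 (n = 3), day 3 (n = 3) and day 21 (n = 2). CRABP2 and CYP26B1 are highest on the scaffolds, and RARB, RARRES2 and XDH on day 21 plastic.

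Synthesis and storage genes showed no common direction. Of 8 tested, 1 rose and 3 fell on the smart scaffold, and 1 rose and 2 fell on the media scaffold, against day 21 plastic. RDH14, a retinol dehydrogenase, rose by 2.23 ± 0.19 and 2.29 ± 0.18 on the log2 scale (limma adjusted p = 3.66e-08 and 1.56e-08 for smart and media). DHRS3 averaged 329 ± 17.9 normalized reads on the smart and 338 ± 38.4 on the media scaffold. On plastic it averaged 207 ± 17.9 at day 21 and 71.6 ± 9.29 at day 0. ALDH1A1, which oxidizes retinaldehyde to retinoic acid as AOX1 can, averaged 97.0 normalized reads on the smart and 252 on the media scaffold. Smart minus media, ALDH1A1 fell by 1.38 ± 0.25 (limma adjusted p = 0.00752), a call that was lost without replicate 2 of the smart scaffold. RARRES2 and ALDH1A1 were the called genes of the list between the scaffolds, each lower on the smart scaffold, as AOX1 was, where 0.0730% of all tested genes were called higher and 0.830% lower. The adipocyte marker sum was also lower there, at 528 to 738 normalized reads on the smart and 949 to 1605 on the media scaffold, and its genes PLIN1, CIDEC and LPL had log2 changes of -1.03 ± 0.43, -0.99 ± 0.27 and -1.21 ± 0.32, smart minus media (limma adjusted p = 0.297, 0.0755 and 0.0621). Their part in these differences was not tested.

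On plastic more pathway genes rose than fell by day 21. RARRES2 averaged 519 ± 33.6 normalized reads at day 21, against 7.44 ± 2.83 at day 0, and rose by 5.99 ± 0.31 on the log2 scale (limma adjusted p = 2.45e-11). NCOA2 rose by 2.76 ± 0.37, CRABP2 by 2.73 ± 0.32 and TGM2 by 2.25 ± 0.22 (limma adjusted p = 3.71e-06, 6.64e-07 and 8.55e-08). RDH14 was the 1 gene that fell, by 1.56 ± 0.19 (limma adjusted p = 1.47e-06). At day 3 against day 0, 3 of the 28 rose and 2 fell, where 6.27% of all tested genes were called higher and 3.73% lower. The genes that rose at day 3 were CYP26B1, TGM2 and NCOA2, and those that fell were ALDH1A1 and RARRES2, both of which rose at day 21. The day 3 calls of CYP26B1, RARRES2 and NCOA2 were lost with a pseudocount of 4. The NCOA2 call was also lost without replicate 1 of day 0 or replicate 2 or 3 of day 3, with quantile normalization (0.92), with the compared groups alone and with array weights (0.30). The RARRES2 call was also lost without replicate 3 of either group, with the compared groups alone and with array weights (-0.88).

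Relatives of the members were set beside them. XDH, xanthine dehydrogenase, a molybdenum enzyme of the same family as AOX1, averaged 1534 ± 105 normalized reads on the smart scaffold and 1759.5 ± 93.5 on the media scaffold, against 61.2 ± 4.84 at day 0, 909.7 ± 66.4 at day 3 and 4253 ± 795 at day 21 on plastic. Like AOX1 it was highest on day 21 plastic, where XDH rose by 6.09 ± 0.12 over day 0 (limma adjusted p = 2.14e-16). Unlike AOX1, its scaffold libraries overlapped, and the log2 change of XDH, smart minus media, was -0.20 ± 0.10 (limma adjusted p = 0.445). LXN, latexin, the relative of RARRES1, was called in none of the 8 comparisons, with log2 changes of 0.94 ± 0.17 on the smart and 0.96 ± 0.16 on the media scaffold against day 21 plastic. It was called there without replicate 1 of day 21 plastic, at 1.19 on the smart and 1.202 on the media scaffold, and also without replicate 1 of the smart (1.01) or replicate 2 of the media scaffold (1.03).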

How the data were processed

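RNA was measured by MARS-seq in 17 libraries of 6 groups per the labels, of which 15 libraries in 5 groups were used. The names of 2 value columns matched no label, and these were left out. The submitters' processing notes name cutadapt, STAR, HTSeq and DESeq, all with no version, and the cattle genome ARS-UCD1.2. Strand use and collapsing of molecular identifiers are not stated in the labels. The deposited signal is read counts that the authors divided by 1 factor per library. Undoing that factor returned whole reads for 100% of values, within 0.1.

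In R 4.3.3, limma 3.58.1 was fitted to log2(value + 1) with trend and robust variance, in 1 fit of 15 libraries and 5 groups. This scale understates changes of low genes. Genes with a mean of at least 5 were tested (10960, with 1934 left out, and 1498 of all genes had no symbol), with Benjamini-Hochberg adjustment over all of them and two-sided tests. The alternatives were pseudocounts of 0.5 and 4, no filter, a minimum mean of 20, other scalings, the compared groups alone, array weights, a replicate block, leaving out each library, and edgeR 4.0.16 quasi-likelihood on the recovered reads. Counting intervals are 95% exact. The code was tested on simulated data. The members and gene lists were chosen with earlier results of these data known. The rule for further genes took, per comparison, the 5 called pathway genes with the largest change and no overlap, plus relatives of the members, and the text adds RDH14, NR2F1, NR2F2, DHRS7 and BGN for their roles or likeness after their values were seen. No value of the untreated scaffold group was used, and its planned comparisons were not run. Members were compared in 8 comparisons. A gene of the pathway list enters the counts and is not reported here.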

Additional observations from a re-analysis of the deposited data

Results flagged for a closer look

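Each of 18 named genes was checked in the media scaffold group, the only group of 4 libraries. For 2 of these genes a library lay apart from the rest, and chance flags about 5% of such checks. The checks share the same 4 libraries, so they are not independent. RARA in replicate 3 of the media scaffold was at 867 normalized reads, against 804 to 811 in the other libraries of that group. CRABP2 in replicate 4 of the media scaffold was at 727.5 normalized reads, against 537 to 559 in the others. Both libraries were kept in the results above.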

How the results depend on the processing

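No called change of a named gene turned direction under any alternative run, while CRABP2 at day 3 against day 0, not called, was at 0.29 without replicate 3 of day 3, against -0.05. Of the members' values, 742 kept their side of the threshold, 15 lost a call and 5 gained one. Most of these concern RARG, whose changes on the scaffolds lie close to a log2 change of 1. On the smart scaffold against day 0, 3 members instead of 5 were called both with a pseudocount of 4 (RARG at 0.88 and CRABP1 at -0.996 were lost) and after rescaling to the same total (RARG at 0.80 and RXRA at 0.85 were lost). Pathway genes called at day 3 against day 0 numbered 2 with a pseudocount of 4 and 3 with the compared groups alone, against 5. Genes called between the scaffolds numbered 192 with array weights, against 99, and 53 to 87 with 1 library left out, where pathway calls ran from 1 to 3. CRABP1 at day 3 against day 0 was called with array weights, at 1.28. RXRA on the media scaffold against day 21 plastic was past the threshold without replicate 1 of day 21 plastic, at -1.01. The cause was not tested. Rescaling to the same total shifted the median log2 change of all genes by -0.26 for day 21 plastic against day 0, where 1812 genes were called higher and 3276 lower, against 2320 and 2636. The shift was -0.32 for day 21 against day 3 on plastic, with 1148 higher and 3057 lower, against 1700 and 2124. It was -0.22 for the smart scaffold against day 0, with 1420 higher and 2155 lower, against 1808 and 1546, and -0.25 for the media scaffold, with 1494 and 2271, against 1913 and 1635. The edgeR test on recovered reads called 107 genes between the scaffolds, 3872 on the smart and 3659 on the media scaffold against day 21 plastic, and the same number of members in every comparison.

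Same-numbered libraries of different groups showed little shared deviation: over 26 pairs the correlation of their deviations from the group means was -0.07 to 0.16. Its median was 0.002, beside 0.001 over 63 pairs of different number. The 2 pairs above 0.1 were both day 3 with day 21 plastic, at 0.16 for replicate 1 and 0.11 for replicate 2. None of the 63 pairs of different number was above 0.1. Deviations within a group cancel out, however, so the 2 day 21 plastic libraries mirror each other. Replicate 1 of day 3 was at -0.16 with replicate 2 of day 21 plastic, and replicate 2 at -0.11 with replicate 1. The contrast with pairs of different number was thus partly fixed in advance. The numbers were not treated as a pairing, and a replicate block was run as an alternative. With the replicate block, 1089 genes were called at day 3 against day 0 and 4034 on the smart scaffold against day 21 plastic, and RARG there, at -0.99, lost its call. Depth limits CRABP1 most, since each scaffold group held 2 of its reads.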
